A study of Mus musculus with 5 samples.

Results

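The 40 genes described here encode proteins that drive or carry out mitosis. They were chosen by gene name, for their known roles, out of 35275 genes in the deposited table, with earlier results of these data known. They were sorted by role into 10 entry kinases, cyclins and regulators, 5 genes of the spindle checkpoint and the anaphase trigger, 5 kinetochore genes, 3 genes of the chromosomal passenger complex, 8 spindle motors and assembly factors, 3 cytokinesis genes and 6 genes of chromosome structure. RNA was sequenced from sorted spleen cells of wild-type C57BL/6 mice aged 3 months, none of them described as treated. The populations were CD8 Treg (1 library), CD4 Treg (2 libraries) and CD49lo (2 libraries), where Treg stands for regulatory T cell. The study's design text names CD4+ Tregs, CD8+ Tregs and a CD8+ effector-like population, and CD49lo is the one left for the last name. Spleen cells were enriched for CD8 before staining and sorting per the labels, which do not give the sort markers or say whether replicates were separate mice. The p-values below therefore measure the spread between these libraries, and that of CD8 Treg, with 1 library, was taken to equal the spread of the other groups.

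Expression is given as RPKM, reads per kilobase of gene per 1000000 reads in genes, and behind it lay 6073243 reads in genes for CD8 Treg, 6203090 and 5441444 for CD4 Treg, and 8354971 and 6564411 for CD49lo. The labels held up for the CD4 and CD8 lineages. The genes read for this do not check the label of CD8 Treg against that of CD49lo. Foxp3, the transcription factor of CD4 Treg, stood at 0.387 RPKM in CD8 Treg, 146 and 146 in CD4 Treg, and 1.66 and 0.795 in CD49lo. Cd8a, a chain of the CD8 coreceptor, stood at 187 RPKM in CD8 Treg, 0.412 and 0.352 in CD4 Treg, and 215 and 255 in CD49lo. The female transcript Xist stood at 0.0834 RPKM in CD8 Treg, 35.5 and 27.2 in CD4 Treg, and 0.0269 and 0 in CD49lo, while the Y-linked Ddx3y stood at 18.3, then 0.0701 and 0, then 18.3 and 27.4 RPKM in the same order. The CD4 Treg libraries thus had the transcripts of the other sex, so sex and cell population cannot be told apart wherever CD4 Treg is compared.

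Cells entering mitosis activate cyclin-dependent kinase 1 with cyclins A and B, condense their chromosomes, and attach them through kinetochores to a spindle built by motor proteins. The spindle checkpoint holds back the anaphase-promoting complex until every chromosome is attached, after which cyclins are destroyed and the cell divides. Most of these genes are transcribed together late in the cell cycle. Their promoters often carry a cell cycle genes homology region (CHR), to which MuvB-containing complexes bind, and CCAAT boxes, to which NF-Y binds. In a resting spleen most T cells do not divide, so messenger RNA of these genes is a common readout of how many cells of a population are in cycle.

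Promoters of the members were searched for CHR-type and CCAAT motifs. The members were chosen for known mitotic roles, so their motif shares describe genes of this kind and not these libraries. Any part of the motifs in the differences between populations was not tested. RefSeq (GRCm38.p6, the same coordinates as mm10) listed a promoter for 34 of the 40 members, from 250 bases before to 50 after the start. It was not matched for Aurkb, Ccna2, Foxm1, Kif20a, Pbk and Tpx2. Each member was counted once, at the first start listed, whereas all promoters were counted by listed start. Of the 34 members, 31 had 1 start listed. A CHR-type match (TTTGAA on either strand, or the palindrome TTCGAA) was present in 27 of the 34 windows (79.4%), against 19.2% of all 32851 promoters. A CCAAT match on either strand was present in 26 (76.5%), against 37.4% of all promoters, and both were present in 24 (70.6%), against 7.53%. Of the 37 CHR-type matches, 26 started within 50 bases of the transcript start and 19 lay after it. There were 63 CCAAT matches, and 1 match of each kind overlapped, in Cdca8. Nusap1, Nuf2, Birc5, Ncaph and Melk had neither, which says only that these letters were not in their windows. A match is a description of the sequence and not a measured binding site.

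The 250 bases before the start of 6 members follow, 5′ to 3′ on the gene's own strand, with the CHR-type and CCAAT-type matches of either strand in capitals. Top2a, Mki67, Smc2 and Ncapd2 are shown as the 4 highest expressed members with both motifs. Ccnb2 and Kif23 were added after their values were seen, because they mark the ends of the comparisons below.
Top2a, chr11:99024190-99024439, minus strand: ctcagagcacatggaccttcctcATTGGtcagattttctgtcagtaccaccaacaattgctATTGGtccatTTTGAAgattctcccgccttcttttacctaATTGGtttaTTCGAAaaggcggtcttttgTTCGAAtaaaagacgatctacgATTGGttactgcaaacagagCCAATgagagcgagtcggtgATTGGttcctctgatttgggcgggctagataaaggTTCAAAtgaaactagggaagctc
Mki67, chr7:135716380-135716629, minus strand: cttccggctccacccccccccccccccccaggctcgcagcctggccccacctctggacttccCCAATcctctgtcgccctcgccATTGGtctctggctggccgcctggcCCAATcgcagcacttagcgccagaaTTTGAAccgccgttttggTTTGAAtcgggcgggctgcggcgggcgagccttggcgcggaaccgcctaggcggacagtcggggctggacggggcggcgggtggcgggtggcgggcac
Smc2, chr4:52438971-52439220, plus strand: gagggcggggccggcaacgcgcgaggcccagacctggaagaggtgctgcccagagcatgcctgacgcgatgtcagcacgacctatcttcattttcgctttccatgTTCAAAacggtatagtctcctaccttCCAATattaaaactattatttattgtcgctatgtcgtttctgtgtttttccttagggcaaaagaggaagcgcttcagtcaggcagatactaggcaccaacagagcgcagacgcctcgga
Ncapd2, chr6:125191587-125191836, minus strand: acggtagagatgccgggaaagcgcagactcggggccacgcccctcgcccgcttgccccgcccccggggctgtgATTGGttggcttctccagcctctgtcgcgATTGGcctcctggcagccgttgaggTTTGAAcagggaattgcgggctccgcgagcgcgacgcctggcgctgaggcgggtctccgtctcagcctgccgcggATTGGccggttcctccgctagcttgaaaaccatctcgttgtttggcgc
Ccnb2, chr9:70421555-70421804, minus strand: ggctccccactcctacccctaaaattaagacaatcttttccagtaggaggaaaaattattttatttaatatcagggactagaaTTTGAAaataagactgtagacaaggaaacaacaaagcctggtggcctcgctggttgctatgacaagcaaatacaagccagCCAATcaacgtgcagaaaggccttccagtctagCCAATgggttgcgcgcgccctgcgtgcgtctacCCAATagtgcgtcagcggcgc
Kif23, chr9:61946800-61947049, minus strand: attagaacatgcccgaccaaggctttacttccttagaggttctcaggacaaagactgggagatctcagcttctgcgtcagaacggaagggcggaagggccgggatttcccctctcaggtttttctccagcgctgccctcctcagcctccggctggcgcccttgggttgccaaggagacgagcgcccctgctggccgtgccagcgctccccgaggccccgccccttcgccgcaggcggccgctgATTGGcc
Top2a, Mki67, Smc2, Ncapd2 and Ccnb2 carried both kinds of match upstream. Kif23 had a single CCAAT-type match in these bases, and its CHR-type match began 3 bases after the start, outside the letters shown.

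**Figure D1:**
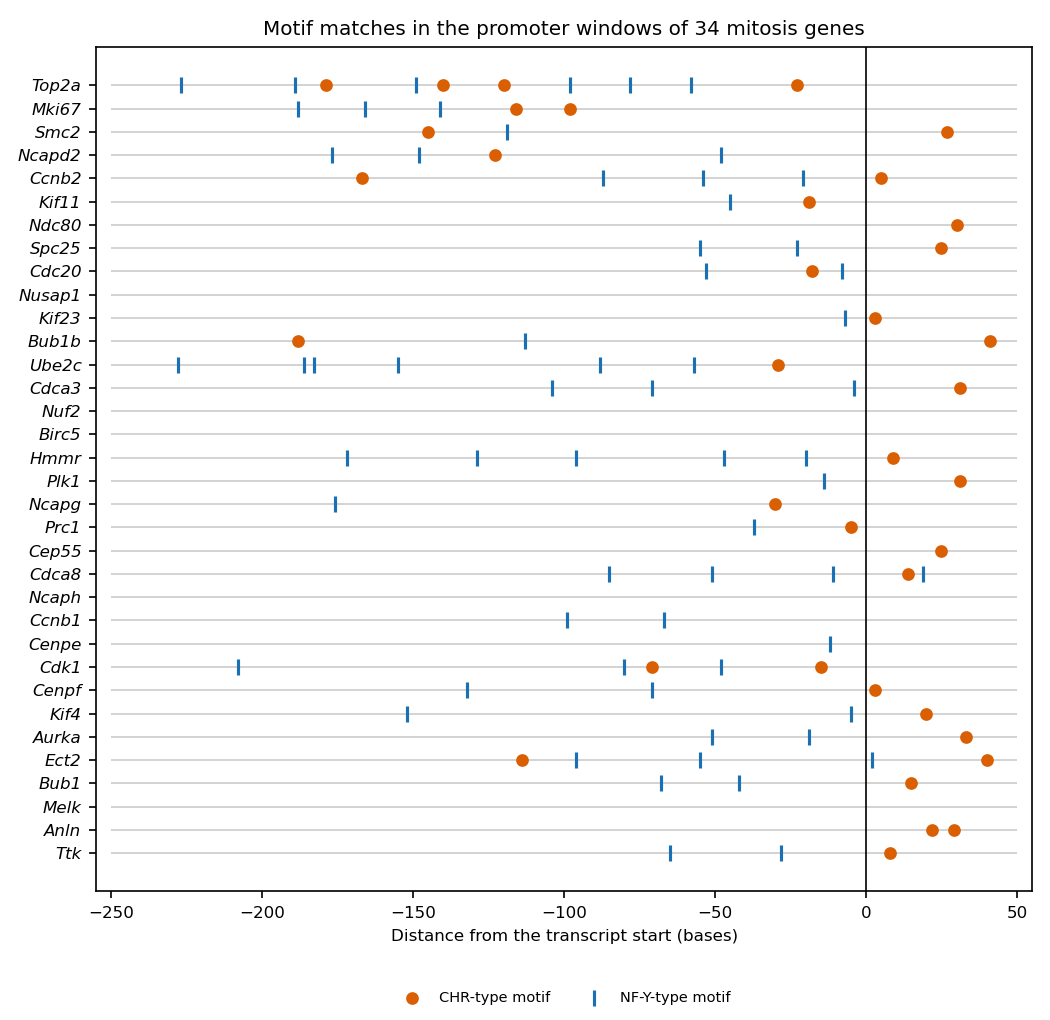
Motif matches in the promoter windows of 34 mitosis genes, ordered by mean expression from the top. The horizontal axis is the distance in bases from the transcript start, grey lines are the windows, circles mark the first base of CHR-type matches and vertical ticks that of CCAAT-type (NF-Y-type) matches; 26 of the 37 circles lie within 50 bases of the start.

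Mitosis transcripts were scarce in both Treg populations and frequent in CD49lo. The members' reads summed to 519 reads per 1000000 reads in genes in CD8 Treg (95% Poisson interval 501 to 537), to 266 (254 to 280) and 299.9 (286 to 315) in CD4 Treg, and to 2877 (2841 to 2914) and 1906 (1873 to 1940) in CD49lo. These intervals cover counting error only. The median member stood at 2.08 RPKM in CD8 Treg, 0.927 and 1.25 in CD4 Treg, and 14.1 and 9.31 in CD49lo. Under 1 RPKM were 7 members in CD8 Treg, 24 and 15 in CD4 Treg, and 0 in each CD49lo library. In 30 of the 40 members the order was CD49lo above CD8 Treg above CD4 Treg in every library, an order found in 11.7% of all genes tested. In these bulk samples, fewer dividing cells and less of these RNAs per cell cannot be told apart.

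**Figure D2:**
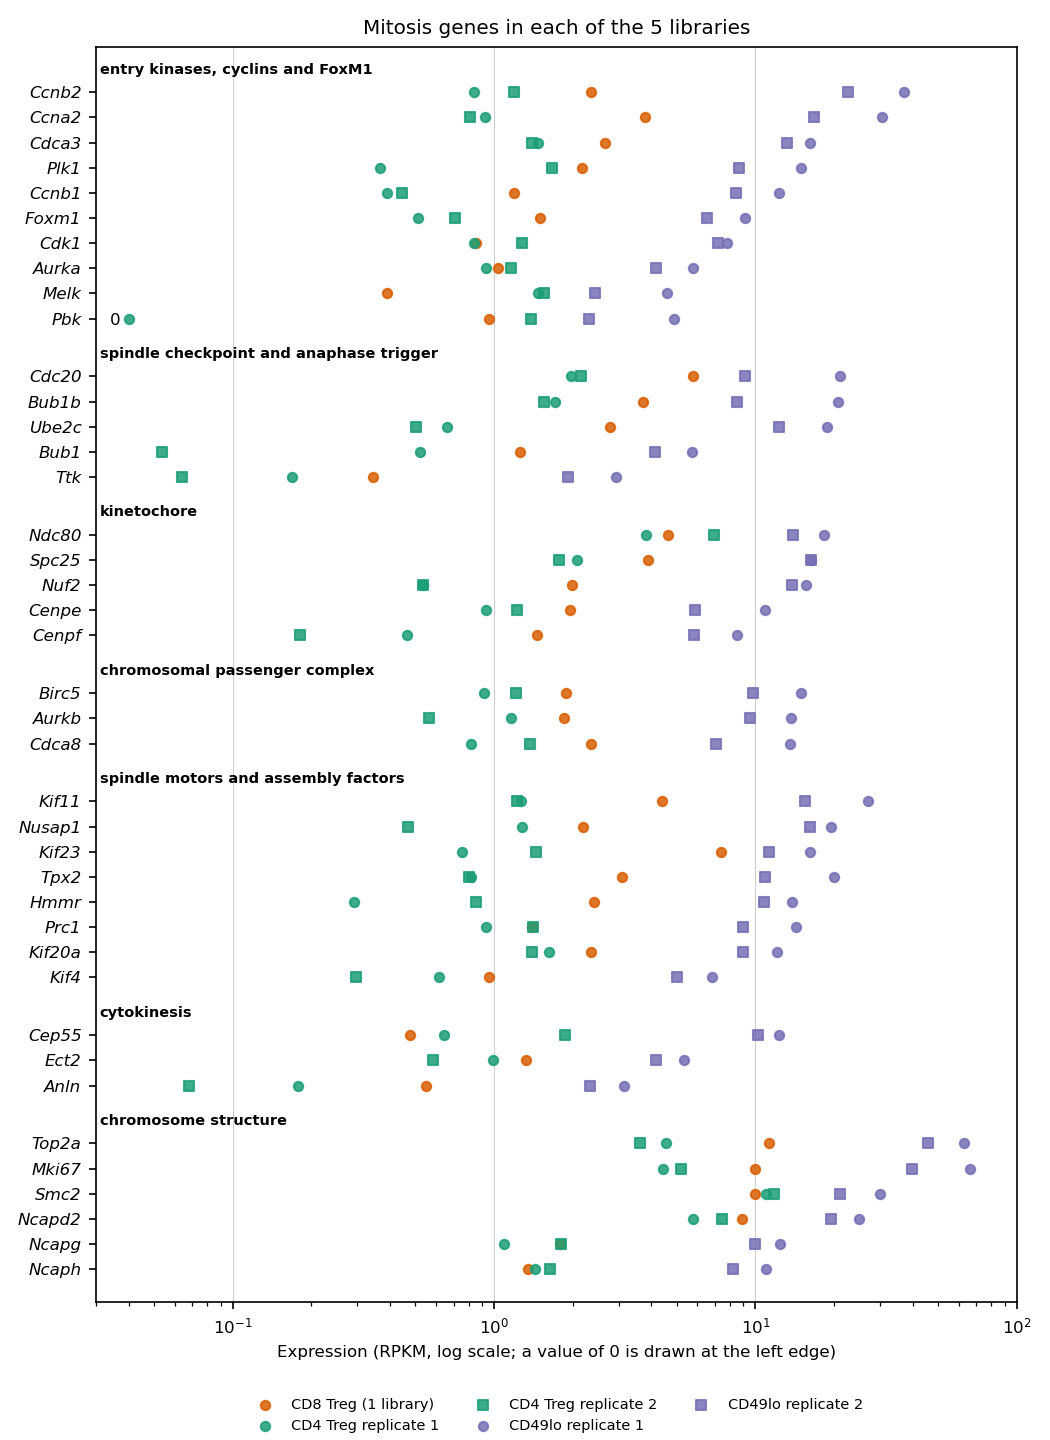
Expression of the 40 mitosis genes in each of the 5 libraries, grouped by role, in RPKM on a log axis. Each point is 1 library, with replicate 1 as a circle and replicate 2 as a square; every member lies to the right in both CD49lo libraries, and the CD8 Treg circle lies between CD4 Treg and CD49lo in 30 members.

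Against CD49lo, 29 of the 40 members were lower in CD8 Treg and none was higher, at an adjusted p under 0.05 (limma, Benjamini-Hochberg over the 13298 genes tested). At an unadjusted p under 0.05 the counts were 37 lower and 0 higher. Among all genes tested, 5.37% were called, 3.65% lower and 1.71% higher. In all 40 members the CD8 Treg value lay below both CD49lo values, a pattern found in 51.2% of all genes tested. The median log2 fold change of the members was -1.99, against -0.04 over all genes, with a range of -3.50 to -0.71. Fold changes are on the log2(RPKM + 0.5) scale, which understates the change of low genes, and their error is the standard error.

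Against the same CD49lo libraries, 38 of the 40 members were lower in CD4 Treg and none was higher. All 40 were lower at an unadjusted p under 0.05. Among all genes tested, 12.8% were called lower and 9.41% higher, and 33.7% had both CD4 Treg values below both CD49lo values, as all 40 members did. The median log2 fold change of the members was -2.81, against -0.03 over all genes, with a range of -4.26 to -0.91. The comparisons share the CD49lo libraries, and 28 members were called lower in both. Another 10 were called in CD4 Treg alone, and Melk alone was called in CD8 Treg but not in CD4 Treg. Pbk was called in neither.

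CD8 Treg was then compared with CD4 Treg directly. Here 10 of the 40 members were higher in CD8 Treg and none was lower, where 8.51% of all genes tested were called higher and 8.35% lower. At an unadjusted p under 0.05 the counts were 17 higher and 1 lower, the lower one being Melk. The median log2 fold change of the members was 0.92, against 0.02 over all genes, with a range of -1.13 to 2.43. CD8 Treg lay above both CD4 Treg libraries in 30 members, between them in 6 and below both in 4. Over all genes tested, 35.9% lay above both and 45.7% below both.

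The counts of calls rested on how the spread was estimated and on which genes were kept. With no read filter, 0 members were called in CD8 Treg against CD49lo and 9 in CD4 Treg against CD49lo. Between the Treg populations 0 were called. A filter of 1 RPKM in every library of a group gave 1, 37 and 2 in the same order. With a prior held constant over expression, 0 members were called in CD8 Treg against CD49lo, 36 in CD4 Treg against CD49lo, and 2 between the Treg populations, where limma-voom called 4 and a fit of those 3 libraries alone called 0. Leaving out CD4 Treg replicate 1 or 2 gave 9 and 5 members in CD8 Treg against CD49lo, 35 and 37 in CD4 Treg, and 2 and 2 between the Treg populations. Leaving out either CD49lo replicate gave 0 in all 3, where genes at 0 in both CD4 Treg libraries, the one pair of replicates left, entered the spread estimate with no variance. With genes at 0 in the pair still replicated removed (CD4 Treg or CD49lo, by the replicate left out), leaving out 1 replicate gave 28 to 36 members, 37 to 39 and 11 to 14.

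**Figure D3:**
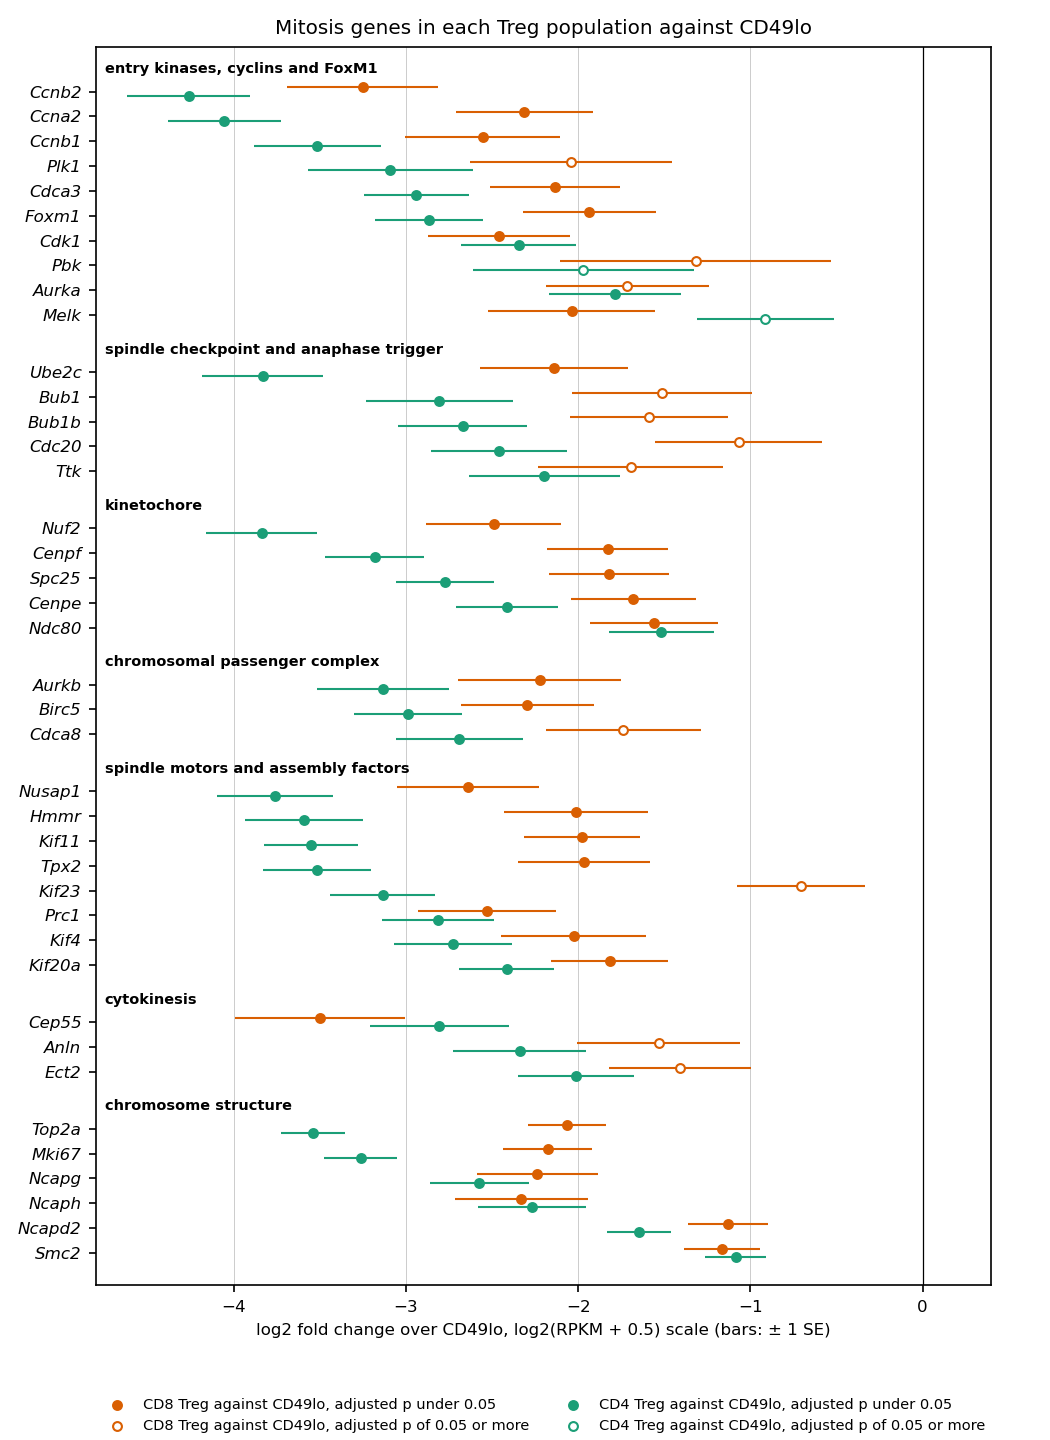
Log2 fold change of each mitosis gene over CD49lo, on the log2(RPKM + 0.5) scale, in CD8 Treg (orange, upper of each pair) and CD4 Treg (green, lower of each pair), with bars of 1 standard error. Filled points passed an adjusted p of 0.05; all points lie below 0, and 29 are filled for CD8 Treg and 38 for CD4 Treg.

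Markers of other cells and traits of the libraries also differed between the populations, not always in the order of the mitosis genes. Summed markers of 9 B cell genes were at 71.4 RPKM in CD8 Treg, 8.49 and 11.8 in CD4 Treg, and 138 and 196 in CD49lo, and all 9 were called lower in CD4 Treg than in CD49lo. In CD4 Treg, 2 of the 9 were at 0 in replicate 1, and 2, Blk and Fcer2a, were at 0 in replicate 2. Markers of monocytes and macrophages, 10 genes, summed to 211 RPKM in CD8 Treg, 20.5 and 8.65 in CD4 Treg, and 359 and 431 in CD49lo, and all 10 were called lower in CD4 Treg. Granulocyte markers, 10 genes, summed to 181 RPKM in CD8 Treg, 9.85 and 0.917 in CD4 Treg, and 296 and 147 in CD49lo, and 9 of them were at 0 in CD4 Treg replicate 2. Markers of NK cells were 7 genes that CD8 T cells can also express. They summed to 199 RPKM in CD8 Treg, 7.62 and 2.43 in CD4 Treg, and 468 and 1834 in CD49lo. Their median was 26.1 RPKM in CD8 Treg, 0.286 and 0 in CD4 Treg, and 22.3 and 38.6 in CD49lo. Plasma cell markers, 6 genes, summed to 75.4 RPKM in CD8 Treg, 7.91 and 1.46 in CD4 Treg, and 151 and 126 in CD49lo. Dendritic cell markers, 8 genes, summed to 83.3 RPKM in CD8 Treg, 86.8 and 72.9 in CD4 Treg, and 171 and 225 in CD49lo. Their median was 0.961 RPKM in CD8 Treg, 0.165 and 0.129 in CD4 Treg, and 4.23 and 4.86 in CD49lo. Erythroid markers, 12 genes, summed to 9.40 RPKM in CD8 Treg, 28.1 and 21.1 in CD4 Treg, and 25.8 and 70.2 in CD49lo. Gamma-delta T cell markers, 5 genes, summed to 17.7 RPKM in CD8 Treg, 8.58 and 6.86 in CD4 Treg, and 25.5 and 103 in CD49lo. Ribosomal protein genes took 12.6% of reads in CD8 Treg, 9.42% and 9.14% in CD4 Treg, and 8.24% and 8.57% in CD49lo. T cell genes, 6 in all, summed to 1799 RPKM in CD8 Treg, 2432 and 2368 in CD4 Treg, and 2158 and 2196 in CD49lo. In CD8 Treg against CD49lo, median log2 fold changes were -1.08 for B cell, -0.14 for monocyte and 0.29 for granulocyte markers. They were -0.17 for NK cell, -1.08 for plasma cell and -1.56 for dendritic cell markers. Erythroid markers came to -0.82 and gamma-delta T cell markers to -0.63, beside -1.99 for the mitosis genes. In CD4 Treg against CD49lo the medians were -4.20 (B cell), -3.41 (monocyte), -3.10 (granulocyte) and -4.83 (NK cell). Plasma cell, dendritic cell, erythroid and gamma-delta T cell medians were -3.64, -1.37, -1.26 and -0.65, beside -2.81 for the mitosis genes. In CD8 Treg against CD4 Treg, in the same order, they were 2.67, 3.22, 3.28, 5.36, 2.30, 0.22, 0.14 and 0.08. The mitosis median there was 0.92. The part of these cells and libraries in the mitosis differences was not tested.

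Within CD49lo, replicate 1 was above replicate 2 in 39 of the 40 members, with Spc25 the exception, against 48.1% of all genes tested. The median log2 ratio was 0.52 over the members and 0.01 over all genes. Among other lists, replicate 1 was also above replicate 2 in 19 of 20 replication and nucleotide synthesis genes (median log2 ratio 0.46), 23 of 27 other spindle, motor and cytokinesis genes (0.46) and 8 of 8 granulocyte genes tested (1.59). It was above in 0 of 9 B cell genes, 1 of 10 monocyte genes, 1 of 8 erythroid genes and 3 of 4 plasma cell genes. Both CD49lo libraries lay above every Treg library in all 40 members. Between the CD4 Treg libraries, replicate 1 was above replicate 2 in 18 members, against 48% of all genes tested.

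Of the entry kinases, cyclins and regulators, 7 of 10 were lower in CD8 Treg than in CD49lo and 8 of 10 were lower in CD4 Treg. Ccnb2, a B-type cyclin on chromosome 9 (mm10, bases 70407689 to 70421554 in the deposited table), stood at 2.35 RPKM in CD8 Treg, 0.837 and 1.19 in CD4 Treg, and 37.0 and 22.6 in CD49lo. It was the most reduced member in CD4 Treg, with a log2 fold change over CD49lo of -4.26 ± 0.36 (adjusted p = 4.03e-05), and fell by 3.25 ± 0.44 on the log2 scale in CD8 Treg (adjusted p = 0.00384). Ccna2, the cyclin of S phase and mitotic entry, stood at 3.78 RPKM in CD8 Treg, 0.925 and 0.806 in CD4 Treg, and 30.6 and 16.7 in CD49lo. Its 3 groups were apart: it was lower in CD8 Treg than in CD49lo (-2.31 ± 0.40, adjusted p = 0.0113) and higher in CD8 Treg than in CD4 Treg (1.74 ± 0.40, adjusted p = 0.0164). Cdca3, a trigger of mitotic entry, stood at 2.67 RPKM in CD8 Treg, 1.47 and 1.40 in CD4 Treg, and 16.2 and 13.2 in CD49lo. Cdk1, the mitotic kinase, stood at 0.856 RPKM in CD8 Treg, 0.838 and 1.27 in CD4 Treg, and 7.80 and 7.18 in CD49lo. The Treg values of Cdk1 overlapped, and its log2 fold change between CD8 Treg and CD4 Treg was -0.11 ± 0.41 (adjusted p = 0.894).

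The kinase gene Melk ran differently from most members. It stood at 0.390 RPKM in CD8 Treg, 1.47 and 1.55 in CD4 Treg, and 4.58 and 2.42 in CD49lo. CD8 Treg was thus the lowest library, but Melk had only 7 reads there, and 27 and 25 in CD4 Treg. Between CD8 Treg and CD4 Treg, its log2 fold change of -1.13 ± 0.49 was not called. Relative to CD49lo, its log2 fold change came to -2.04 ± 0.49 in CD8 Treg (adjusted p = 0.0449) and -0.91 ± 0.40 in CD4 Treg (adjusted p = 0.142). Melk was called in CD8 Treg against CD49lo in 7 of 18 alternative fits, and between the Treg populations in 0 of 18. Pbk, a mitotic kinase, had 10 reads in CD8 Treg, 0 and 13 in CD4 Treg, and 70 and 26 in CD49lo, and its CD4 Treg replicates were far apart. Relative to CD49lo, its log2 fold change came to -1.32 ± 0.79 in CD8 Treg (adjusted p = 0.416) and -1.97 ± 0.64 in CD4 Treg (adjusted p = 0.0561). The kinases Plk1 and Aurka, which mature the spindle poles, were called lower in CD4 Treg but not in CD8 Treg, where their log2 fold changes were -2.04 ± 0.59 and -1.72 ± 0.47. Ccnb1 and the transcription factor gene Foxm1 were called lower in both Treg populations. Foxm1, whose protein activates many of these genes, stood at 1.497 RPKM in CD8 Treg, 0.513 and 0.710 in CD4 Treg, and 9.14 and 6.55 in CD49lo.

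The spindle checkpoint and anaphase trigger genes were all lower in CD4 Treg than in CD49lo, 5 of 5, while 1 of 5, Ube2c, was called lower in CD8 Treg. Cdc20, the activator of the anaphase-promoting complex, stood at 5.79 RPKM in CD8 Treg, 1.98 and 2.15 in CD4 Treg, and 21.0 and 9.09 in CD49lo. CD8 Treg lay between the other groups, and the log2 fold change over CD49lo came to -1.07 ± 0.49 (adjusted p = 0.273). Bub1b, a checkpoint protein, stood at 3.73 RPKM in CD8 Treg, 1.71 and 1.55 in CD4 Treg, and 20.8 and 8.51 in CD49lo. For both genes CD49lo replicate 1 stood over replicate 2 by more than 2 times. Ube2c, the ubiquitin-conjugating enzyme of that complex, stood at 2.78 RPKM in CD8 Treg, 0.662 and 0.503 in CD4 Treg, and 18.8 and 12.3 in CD49lo, and was the group's 1 gene called higher in CD8 Treg than in CD4 Treg (1.69 ± 0.43, adjusted p = 0.0257). The checkpoint kinases Bub1 and Ttk were not called in CD8 Treg against CD49lo, with log2 fold changes of -1.51 ± 0.52 and -1.70 ± 0.54.

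All 5 kinetochore genes were lower than CD49lo in CD8 Treg and in CD4 Treg. Ndc80, a microtubule-binding kinetochore protein, stood at 4.64 RPKM in CD8 Treg, 3.81 and 6.93 in CD4 Treg, and 18.3 and 14.0 in CD49lo. Its partner in the same complex, Nuf2, stood at 1.99 RPKM in CD8 Treg, 0.536 and 0.535 in CD4 Treg, and 15.6 and 13.7 in CD49lo. Among the Treg libraries, CD8 Treg lay between the CD4 Treg values for Ndc80 (log2 fold change -0.04 ± 0.37) and above both for Nuf2 (1.35 ± 0.39, adjusted p = 0.0453). Spc25, also of that complex, stood at 3.88 RPKM in CD8 Treg, 2.07 and 1.77 in CD4 Treg, and 16.3 and 16.4 in CD49lo. Cenpf, a large kinetochore protein, was the second gene of the group called higher in CD8 Treg than in CD4 Treg (1.35 ± 0.35, adjusted p = 0.0279). The motor gene Cenpe stood at 1.96 RPKM in CD8 Treg, 0.929 and 1.22 in CD4 Treg, and 10.9 and 5.87 in CD49lo.

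The chromosomal passenger complex corrects wrong attachments. Birc5 (survivin) stood at 1.88 RPKM in CD8 Treg, 0.919 and 1.21 in CD4 Treg, and 14.97 and 9.78 in CD49lo. Its kinase gene Aurkb stood at 1.86 RPKM in CD8 Treg, 1.16 and 0.565 in CD4 Treg, and 13.6 and 9.53 in CD49lo. Both were called lower in each Treg population than in CD49lo. Cdca8 (borealin) stood at 2.35 RPKM in CD8 Treg, 0.816 and 1.37 in CD4 Treg, and 13.5 and 7.08 in CD49lo, and was called in CD4 Treg but not in CD8 Treg (-1.74 ± 0.45, adjusted p = 0.0618). None of the 3 was called between CD8 Treg and CD4 Treg, where their log2 fold changes ran from 0.69 to 0.95.

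Spindle motors and assembly factors held 4 of the 10 members called higher in CD8 Treg than in CD4 Treg: Kif23, Kif11, Tpx2 and Hmmr. Kif23, a motor of the central spindle and the midbody (chromosome 9, mm10 bases 61917280 to 61946799), stood at 7.36 RPKM in CD8 Treg, 0.754 and 1.45 in CD4 Treg, and 16.1 and 11.3 in CD49lo. It had the largest log2 fold change of the members between CD8 Treg and CD4 Treg, 2.43 ± 0.37 (adjusted p = 0.00212). It was also the member least reduced in CD8 Treg against CD49lo, at -0.71 ± 0.37 (adjusted p = 0.353), whereas in CD4 Treg it was lower (-3.14 ± 0.31, adjusted p = 9.42e-05). Its exons are shared with no other annotated gene. Kif11, the motor that pushes spindle poles apart, stood at 4.37 RPKM in CD8 Treg, 1.27 and 1.22 in CD4 Treg, and 26.9 and 15.5 in CD49lo, with CD8 Treg over CD4 Treg at 1.58 ± 0.33 (adjusted p = 0.0111). Nusap1, a microtubule-bundling protein, stood at 2.19 RPKM in CD8 Treg, 1.28 and 0.469 in CD4 Treg, and 19.4 and 16.1 in CD49lo. It was among the 3 members most reduced in CD8 Treg (-2.64 ± 0.41, adjusted p = 0.00714). Kif4, Kif20a and Prc1, which shape the central spindle, were called lower in both Treg populations and in neither direction between them. Without strand information, reads of Kif20a and Cdc23 cannot be told apart over the 29.3% of Kif20a exonic bases they share, and 13 members share some exonic bases with another gene.

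All 3 cytokinesis genes were lower in CD4 Treg than in CD49lo, and 1, Cep55, was lower in CD8 Treg. Cep55 encodes a midbody protein needed for the final cut. It stood at 0.477 RPKM in CD8 Treg, 0.642 and 1.86 in CD4 Treg, and 12.3 and 10.3 in CD49lo. Cep55 had only 8 reads in CD8 Treg, 11 and 28 in CD4 Treg, and 283 and 186 in CD49lo. It was the member most reduced in CD8 Treg against CD49lo (-3.50 ± 0.49, adjusted p = 0.00469), the opposite end of the range from Kif23, and CD8 Treg lay below both CD4 Treg libraries. Ect2, which activates RhoA at the cell's equator, stood at 1.33 RPKM in CD8 Treg, 0.986 and 0.585 in CD4 Treg, and 5.33 and 4.18 in CD49lo. Anln (anillin), a scaffold of the contractile ring, stood at 0.547 RPKM in CD8 Treg, 0.178 and 0.0678 in CD4 Treg, and 3.14 and 2.33 in CD49lo. Neither Ect2 nor Anln was called in CD8 Treg against CD49lo. Between CD8 Treg and CD4 Treg, Cep55 was not called (log2 fold change -0.69 ± 0.49).

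Genes of chromosome structure held the 4 highest expressed members, and all 6 in the group were lower in both Treg populations than in CD49lo. Top2a, the topoisomerase that untangles sister chromatids (chromosome 11, mm10 bases 98992943 to 99024189), stood at 11.3 RPKM in CD8 Treg, 4.54 and 3.63 in CD4 Treg, and 62.7 and 45.8 in CD49lo. Mki67, which encodes the proliferation marker Ki-67, stood at 9.97 RPKM in CD8 Treg, 4.43 and 5.20 in CD4 Treg, and 66.0 and 39.9 in CD49lo. For both genes the 3 groups were apart. Top2a in CD8 Treg was lower than in CD49lo (-2.07 ± 0.23, adjusted p = 0.00137) and higher than in CD4 Treg (1.47 ± 0.23, adjusted p = 0.00212). Mki67 in CD8 Treg was lower than in CD49lo (-2.18 ± 0.26, adjusted p = 0.00212) and higher than in CD4 Treg (1.08 ± 0.26, adjusted p = 0.0198).

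Smc2, the core subunit of condensin, the complex that compacts mitotic chromosomes, stood at 9.96 RPKM in CD8 Treg, 10.98 and 11.8 in CD4 Treg, and 30.1 and 21.1 in CD49lo. Ncapd2 stood at 8.89 RPKM in CD8 Treg, 5.75 and 7.46 in CD4 Treg, and 24.9 and 19.4 in CD49lo. Both had small reductions in CD8 Treg among the members, with log2 fold changes over CD49lo of -1.17 ± 0.22 (adjusted p = 0.0163) for Smc2 and -1.13 ± 0.23 (adjusted p = 0.0235) for Ncapd2. None of the condensin members Smc2, Ncapd2, Ncapg and Ncaph was called between CD8 Treg and CD4 Treg, where their log2 fold changes ran from -0.08 ± 0.22 for Smc2 to 0.52 ± 0.23 for Ncapd2.

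**Figure D4:**
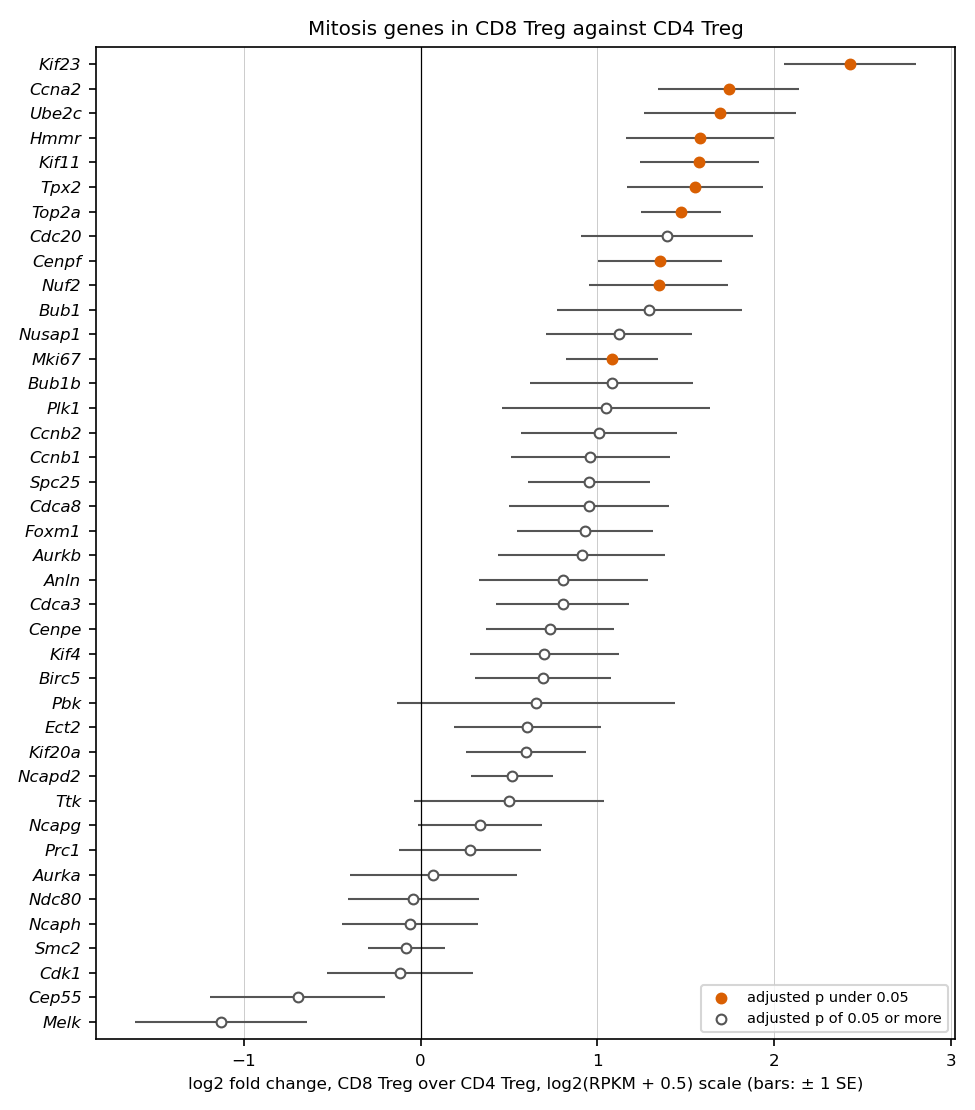
Log2 fold change of each mitosis gene in CD8 Treg over CD4 Treg, on the log2(RPKM + 0.5) scale, with bars of 1 standard error, ordered from the largest at the top. Filled points are the 10 members at an adjusted p under 0.05, all to the right of 0; Kif23 leads at 2.43 and Melk is last at -1.13.

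Genes of the same machinery outside the 40 were read from 10 further lists. Their counts stand beside shares over all genes of 3.65% called lower and 1.71% higher in CD8 Treg against CD49lo, 12.8% and 9.41% in CD4 Treg against CD49lo, and 8.35% and 8.51% in CD8 Treg against CD4 Treg. Of 35 other kinetochore and checkpoint genes, 9 were lower in CD8 Treg and 22 in CD4 Treg than in CD49lo, and none was higher. Casc5, the kinetochore scaffold, stood at 0.802 RPKM in CD8 Treg, 0.620 and 0.518 in CD4 Treg, and 8.19 and 4.67 in CD49lo. Of the same 35, Cenpw and Spc24 were called higher in CD8 Treg than in CD4 Treg, a share below the 8.51% of all genes. Of 27 other spindle, motor and cytokinesis genes, 13 were lower in CD8 Treg and 22 in CD4 Treg than in CD49lo. Of the same 27, Racgap1 and Depdc1b were called higher in CD8 Treg than in CD4 Treg, a share near the 8.51% of all genes. Racgap1, the partner of Kif23 in the centralspindlin complex, stood at 27.1 RPKM in CD8 Treg, 2.13 and 3.24 in CD4 Treg, and 31.4 and 32.5 in CD49lo. CD8 Treg was thus close to CD49lo in this gene (log2 fold change -0.10 ± 0.23, adjusted p = 0.863) and far above CD4 Treg (3.24 ± 0.23, adjusted p = 2.89e-05).

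Of 11 other entry kinases and phosphatases, Cdc25b and Ccnf were lower in CD8 Treg and 9 genes in CD4 Treg than in CD49lo. Gsg2 (haspin) was called higher in CD8 Treg than in CD4 Treg (2.16 ± 0.45, adjusted p = 0.0104). As 1 gene of 11, it makes a share near the 8.51% of all genes. Among 13 cohesin, separase and securin genes none was called in CD8 Treg against CD49lo by limma, with 4 lower at an unadjusted p under 0.05. In CD4 Treg the separase gene Espl1, the cohesin protector gene Sgol1 and the cohesin factor Cdca5 were lower. No gene of that list was called between CD8 Treg and CD4 Treg, with 1 lower and 1 higher at an unadjusted p under 0.05. Of 15 subunits and activators of the anaphase-promoting complex, Fzr1 was called lower in CD8 Treg and Anapc15 in CD4 Treg than in CD49lo, and none between the Treg populations (1 lower and 3 higher at an unadjusted p under 0.05). The share in CD4 Treg was below the 12.8% of all genes called lower there.

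The condensin subunit gene Smc4 went against its partner Smc2. It stood at 93.7 RPKM in CD8 Treg, 270.0 and 278 in CD4 Treg, and 126 and 109 in CD49lo. It was higher in CD4 Treg than in CD49lo (1.25 ± 0.11, adjusted p = 4.58e-05) and lower in CD8 Treg than in CD4 Treg (-1.44 ± 0.13, adjusted p = 0.000114). Per kilobase, Smc4 stood above Smc2 in every library. Ncapg2, of the other condensin complex, was lower in both Treg populations than in CD49lo and higher in CD8 Treg than in CD4 Treg.

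Upstream of mitosis, 6 of 20 replication and nucleotide synthesis genes were lower in CD8 Treg and 19 of 20 in CD4 Treg than in CD49lo. Their median log2 fold changes were -1.01 and -1.46, smaller in size than the -1.99 and -2.81 of the mitosis genes. Rrm2, a subunit of ribonucleotide reductase, stood at 5.93 RPKM in CD8 Treg, 2.50 and 3.02 in CD4 Treg, and 32.0 and 21.5 in CD49lo. Cdt1, a licensing factor, was the list's 1 gene called between CD8 Treg and CD4 Treg (0.90 ± 0.22, adjusted p = 0.0233), a share below the 8.51% of all genes called higher. Of 12 G1 cyclins, kinases and activator E2F genes, 2 (Cdk2 and E2f2) were lower and 1 (Myc) higher in CD8 Treg than in CD49lo, and 8 were lower and 2 (Myc and Ccnd2) higher in CD4 Treg. Myc, a growth regulator, stood at 52.6 RPKM in CD8 Treg, 37.9 and 37.8 in CD4 Treg, and 26.04 and 22.8 in CD49lo, so that, unlike the mitosis genes, it was higher in both Treg populations than in CD49lo. Between the Treg populations, Ccnd1, Ccnd3 and Myc were higher and Cdk2 and E2f2 lower in CD8 Treg.

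Another list held 12 genes of the MuvB complex, B-Myb and the pocket proteins, and E2F-family genes with their partner Tfdp1. Of these, Rb1 was lower in CD8 Treg than in CD49lo. Mybl2 and Tfdp1 were lower in CD4 Treg than in CD49lo, a count near the 12.8% of all genes. Rb1, the retinoblastoma protein gene, stood at 4.46 RPKM in CD8 Treg, 10.3 and 11.5 in CD4 Treg, and 10.3 and 10.9 in CD49lo. Rb1 and Rbl2 were lower and Tfdp1 higher in CD8 Treg than in CD4 Treg, where the higher call is near the 8.51% of all genes. Of 13 tested inhibitors of cyclin-dependent kinases and antiproliferative genes, none was called in CD8 Treg against CD49lo by limma, with 2 lower and 1 higher at an unadjusted p under 0.05. In CD4 Treg 6 were higher than in CD49lo (Btg1, Foxo1, Cdkn1b, Foxo3, Btg2 and Cdkn1c) and 3 lower (Cdkn2a, Cdkn2c and Klf2). Btg1, an antiproliferative factor, stood at 119 RPKM in CD8 Treg, 238 and 243 in CD4 Treg, and 128 and 136 in CD49lo. Cdkn1b, which encodes p27, stood at 34.3 RPKM in CD8 Treg, 67.3 and 67.0 in CD4 Treg, and 38.9 and 46.8 in CD49lo. Btg1, Btg2, Foxo1, Cdkn1b and Cdkn1c were lower in CD8 Treg than in CD4 Treg. These lists carry the same limits as the members: CD4 Treg differs from the other populations in sex and in several of the marker sums given above.

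**Figure D5:**
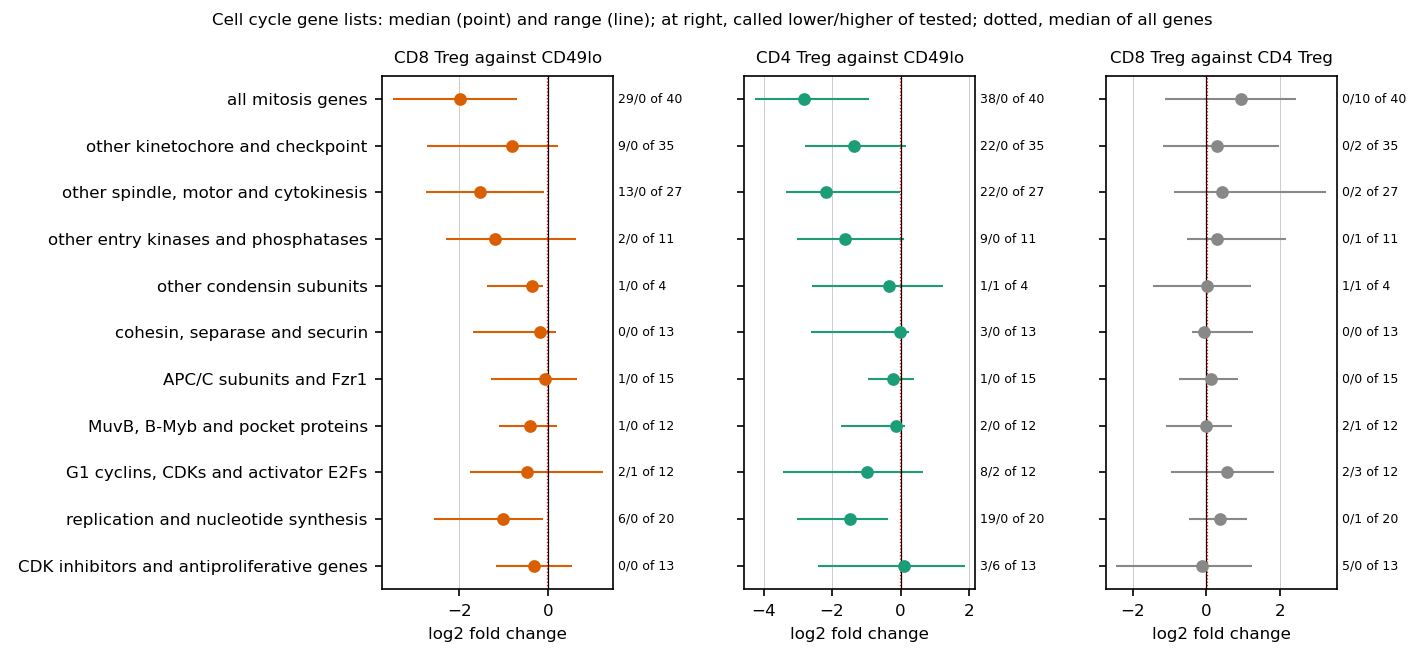
Log2 fold changes of the mitosis genes and of 10 other cell cycle lists in the 3 comparisons, on the log2(RPKM + 0.5) scale. Points are list medians and lines the full range of tested members. The numbers at the right count genes called lower and higher of those tested, and the dotted line is the median of all genes. The mitosis genes have the lowest median in both comparisons with CD49lo, -1.99 and -2.81. All lists were drawn up with earlier results of these data known.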

How the data were processed

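The series' 5 libraries come in 1 table. The authors deposited RPKM in it: each value times gene length was a whole multiple of a per-library step for 100% of values (tolerance 0.02), so reads could be recovered. CASAVA, STAR and the mm10 build are named, without versions, per the submitters' processing notes, and strand use in counting is not given in the sources used here. RPKM was divided by TMM factors from the recovered reads, and limma 3.58.1 under R 4.3.3 was fitted to log2(RPKM + 0.5) over 3 groups (2 residual degrees of freedom, prior trend on mean log2 RPM, reads per 1000000). Two-sided p-values were Benjamini-Hochberg adjusted over 13298 genes with at least 10 reads at median depth in 1 library and 15 reads in total, and all 40 members passed. The read floor of 3 reads was 0.494 RPM in CD8 Treg, 0.484 and 0.551 in CD4 Treg, and 0.359 and 0.457 in CD49lo. edgeR was not used, since the values are not counts as deposited; limma-voom on the recovered reads was an alternative (100% of values came out whole; it called 689, 2929 and 1817 genes in the 3 comparisons, in the report's order).

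The members, lists, markers and naming rule were chosen with earlier results of these data known. Values in every library were given for the 3 highest expressed members of each role group, for members not called in CD4 Treg against CD49lo, and for the 3 largest and 3 smallest fold changes in each comparison that involves CD8 Treg; Foxm1 and Cenpe were added. Of other genes, up to 4 with the smallest p per list could be named, beside any in a count of 5 or fewer, named after its values were seen. Replicates differed beyond counting noise (chi-square per gene 5.49 in CD4 Treg and 11.4 in CD49lo). Sgo2a, Trdc and the duplicated Cr2 were not used, and 1 marker gene is not reported by name here. Promoters and motif counts came from RefSeq, exon overlaps from GENCODE M21. Alternatives tried were other pseudocounts, filters, scalings and priors, limma-voom, fits of 2 groups, a replicate block and leaving out each replicate.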

Additional observations from a re-analysis of the deposited data

How the results depend on the processing

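Triplets of values run in the report's order of comparisons (each Treg population against CD49lo, CD8 Treg first, and then the Treg populations against each other), where the calls moved by over 1.5 times. With no read filter, 452, 685 and 1072 genes were called, and 0, 9 and 0 mitosis genes. With a constant prior, 2, 1961 and 1192 genes were called; of the mitosis genes 0 were called in CD8 Treg against CD49lo and 2 in CD8 Treg against CD4 Treg. In CD8 Treg against CD49lo, a prior trend on RPKM gave 365 genes and 14 mitosis genes, and a filter of 1 RPKM gave 291 and 1. In CD8 Treg against CD4 Treg, mitosis calls were 4 with the RPKM trend, 2 with the 1 RPKM filter, 6 with a pseudocount of 1, 4 with limma-voom and 0 (759 genes) with only those groups, whereas the like fit of CD8 Treg and CD49lo alone called 1019 genes and 36 mitosis genes. The cause was not tested. The calls higher in CD8 Treg than in CD49lo were 31.9% of all calls, against 20.4% without scaling, 50.8% with limma-voom, 53.6% with the 1 RPKM filter and 85.6% with no filter; without scaling the median gene moved to -0.16.

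Leaving out 1 replicate left 0 to 204 genes and 0 to 9 mitosis genes in CD8 Treg against CD49lo, 0 to 1459 and 0 to 37 for CD4 Treg in the same comparison, and 0 to 976 and 0 to 2 between the Treg populations. The counts of 0 came without either CD49lo replicate, when 269 and 322 genes at 0 in both CD4 Treg libraries entered the spread prior with no variance. With genes at 0 in the pair still replicated left out (45 and 55 genes at 0 in both CD49lo libraries where a CD4 Treg replicate was dropped), an alternative chosen after seeing the data, the ranges were 909 to 1219 genes (1187 and 1219 without a CD4 Treg replicate) and 28 to 36 mitosis genes, 2475 to 2879 and 37 to 39, and 2097 to 2864 and 11 to 14. A lone library is assumed to vary like the other groups.

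Reversed fold changes were all between CD8 Treg and CD4 Treg, and none was called: Aurka at -0.0027 without scaling and -0.032 without CD4 Treg replicate 1, Pbk at -0.30 without that replicate, and Cdk1 at 0.081, Ndc80 at 0.34 and Ncaph at 0.0014 without CD4 Treg replicate 2. Over the replicates left out, these ran from -0.032 to 0.17 for Aurka, -0.30 to 1.60 for Pbk, -0.31 to 0.081 for Cdk1, -0.43 to 0.34 for Ndc80 and -0.13 to 0.0014 for Ncaph. With a replicate block, CD4 Treg against CD49lo gave 3572 genes and 39 mitosis genes. Same-numbered libraries deviated with a correlation of -0.02 over genes, so no shared shift was seen. Whether they were prepared as pairs is not known from the labels. No paired analysis was possible for the other comparisons because CD8 Treg has 1 library. Depth limits the lowest members: under 10 reads lay 3 in CD8 Treg, 9 and 9 in CD4 Treg, and 0 in each CD49lo library.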
